A study of Homo sapiens with 24 samples.

Results

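The genes described here make and assemble ribosomes: 60 genes for the synthesis of ribosomal RNA (rRNA) by RNA polymerase I (Pol I), its modification and its assembly with proteins, of 60366 entries in the count table. They were taken by gene symbol from a fixed list, which was chosen with earlier results of these data known. The rule itself uses no measured value, and all 60 were found, as protein-coding genes of GENCODE 29. By role, 7 genes serve Pol I transcription, 8 the small nucleolar ribonucleoproteins (snoRNPs), 4 are nucleolar chaperone and scaffold genes and 4 modify rRNA bases. A further 15 belong to the small-subunit (SSU) processome, 6 to late 40S maturation and 16 to 60S assembly. The counts come from poly(A) RNA of BXPC3, MIAPACA2 and PSN1, 3 established pancreatic adenocarcinoma lines with MTAP deleted, per the submitters, although their genotype label reads WT. AM-9747 is an inhibitor of the arginine methyltransferase PRMT5 that acts together with methylthioadenosine, the metabolite that MTAP clears. Libraries came in 6 groups of 4, all taken at day 6: BXPC3 given 100 nM AM-9747 and BXPC3 given DMSO vehicle, MIAPACA2 given 150 nM AM-9747 and MIAPACA2 given vehicle, and PSN1 given 100 nM AM-9747 and PSN1 given vehicle. MIAPACA2 alone got the higher dose, and its line and dose cannot be told apart.

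Ribosome production starts in the nucleolus, where Pol I copies the rDNA repeats into a long precursor rRNA. Box C/D and box H/ACA snoRNPs guide 2'-O-methylation and pseudouridylation of this precursor, further enzymes modify single bases, and the SSU processome and the 60S assembly factors fold, cut and package it into subunits. The genes for these factors are transcribed by RNA polymerase II, and many of them are known targets of MYC, which binds the E-box CACGTG. Growing cancer cells depend on this pathway, and PRMT5 is known to methylate arginines in nucleolar proteins with glycine- and arginine-rich stretches. The libraries hold poly(A) RNA, so the rRNA itself was not measured.

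Libraries held 22.4 to 45.6 M counts, and the lowest count of any member in any library was 51. Mitochondrial genes took 4.34 to 20.5% of the counts in BXPC3 and MIAPACA2 libraries, and in PSN1 7.98 to 31.1% under AM-9747 and 17.4 to 43.8% under vehicle. Replicate 4 stood apart in the BXPC3 vehicle group, with a chi-square per gene of 149 to 194 against the other vehicle libraries, which gave 7.14 to 10.9 among themselves. Replicate 1 stood apart in the PSN1 vehicle group (285 to 479, against 67 to 129 among the others), with a mitochondrial share of 17.4% against 33.5 to 43.8%. In the MIAPACA2 AM-9747 group replicate 3 stood apart (123 to 166, against 15.2 to 34.8 among the others). Its mitochondrial share was 7.23%, against 14.7 to 16.6%. Libraries of the other groups differed widely too. By the same measure, pairs gave 31.6 to 245 in BXPC3 AM-9747, 30 to 303 in MIAPACA2 vehicle and 39.3 to 462 in PSN1 AM-9747. Replicates spread least in BXPC3 (biological coefficient of variation 26.6%), more in MIAPACA2 (32.1%) and most in PSN1 (55.1%). The epithelial markers KRT8 and KRT18 were present in every group (means of 420 to 2509 CPM and 703 to 1876 CPM), while EPCAM, CDH1 and KRT7 averaged under 1 CPM in MIAPACA2 and CDH1 at most 1.6 CPM in PSN1. The summed fibroblast markers were 148 to 179 CPM under AM-9747 and 42.1 to 62.3 CPM under vehicle in PSN1, 44 to 54.5 and 26.9 to 30.9 CPM in BXPC3, and 2.95 to 4.1 and 0.94 to 2.59 CPM in MIAPACA2. Summed leukocyte markers were at most 47.4 CPM in any library, and CD3E was at 0 in MIAPACA2 and PSN1. The part of these markers in the responses was not tested. Nothing in the labels says that the replicates were separate cultures, so the p-values measure the spread between these libraries. In bulk samples, fewer cells of a type and less RNA per cell cannot be told apart.

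Of the 60 members, 52 have a promoter sequence in the RefSeq table, taken from 250 bases before to 50 bases after the start (GRCh38.p14). The letters CACGTG, which read the same on both strands and were the only motif searched, stood in 17 of these 52 promoters (32.7%), against 1341 of 15723 protein-coding promoters (8.53%). Shown here are promoters of members that changed in the same direction in at least 2 lines, on the strand of the gene, with CACGTG in capitals. NOP2 lies on the minus strand (chr12:6568242-6568541 for the promoter), LTV1 on the plus strand (chr6:143843088-143843387), TAF1D on the minus strand (chr11:93741446-93741745) and EMG1 on the plus strand (chr12:6970663-6970962).
NOP2: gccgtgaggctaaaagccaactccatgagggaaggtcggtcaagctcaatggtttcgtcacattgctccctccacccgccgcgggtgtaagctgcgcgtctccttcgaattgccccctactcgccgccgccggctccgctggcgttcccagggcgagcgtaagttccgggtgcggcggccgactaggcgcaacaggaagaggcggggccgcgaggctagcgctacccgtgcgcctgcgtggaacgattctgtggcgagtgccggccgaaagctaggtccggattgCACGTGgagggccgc
LTV1: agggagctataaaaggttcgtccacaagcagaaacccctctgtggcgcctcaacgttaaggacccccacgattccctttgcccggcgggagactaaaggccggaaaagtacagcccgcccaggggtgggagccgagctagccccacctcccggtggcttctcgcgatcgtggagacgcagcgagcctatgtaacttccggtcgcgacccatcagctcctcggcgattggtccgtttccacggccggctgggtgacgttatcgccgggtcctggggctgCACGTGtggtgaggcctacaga
TAF1D: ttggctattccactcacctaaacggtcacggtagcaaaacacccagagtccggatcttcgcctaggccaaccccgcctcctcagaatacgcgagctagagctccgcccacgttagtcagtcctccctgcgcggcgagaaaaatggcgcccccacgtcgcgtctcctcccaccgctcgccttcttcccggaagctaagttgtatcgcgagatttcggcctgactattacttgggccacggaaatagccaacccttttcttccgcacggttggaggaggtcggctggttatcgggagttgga
EMG1: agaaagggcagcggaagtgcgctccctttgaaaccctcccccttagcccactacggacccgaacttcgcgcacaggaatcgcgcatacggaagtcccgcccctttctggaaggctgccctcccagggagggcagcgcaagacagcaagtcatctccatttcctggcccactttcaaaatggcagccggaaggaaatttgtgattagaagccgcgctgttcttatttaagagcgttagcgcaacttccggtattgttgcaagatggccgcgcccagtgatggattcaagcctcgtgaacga
In NOP2 the motif starts 36 bases after the annotated start and in LTV1 29 bases after it. The windows of TAF1D and EMG1 hold no such letters. A match is a description of the sequence and no measurement of binding.

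NOP2, which methylates a cytosine of the large-subunit rRNA, rose 4.15-fold in BXPC3, 3.7-fold in MIAPACA2 and 2.99-fold in PSN1, and LTV1, a 40S assembly factor, rose 1.93-fold, 1.51-fold and 2.58-fold. TAF1D, a subunit of the Pol I selectivity factor SL1, rose in BXPC3 and MIAPACA2. EMG1, which methylates a pseudouridine of the small-subunit rRNA, and the Pol I subunit gene POLR1E fell in these same 2 lines. At an adjusted p below 0.05 (edgeR's quasi-likelihood test in each line alone, Benjamini-Hochberg adjustment over all genes tested), 18 of the 60 members were called in at least 1 line and 42 in none, against 41.7% of the genes tested in every line called in at least 1. Those called in all lines in the same direction were 2 higher and 0 lower, where 0.718% of the 14476 genes tested in every line were higher in all and 1.16% lower. For the same direction in at least 2 lines the members counted 3 higher (NOP2, LTV1, TAF1D) and 2 lower (EMG1, POLR1E), against 4.55% of all genes higher and 6.56% lower.

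**Figure D1:**
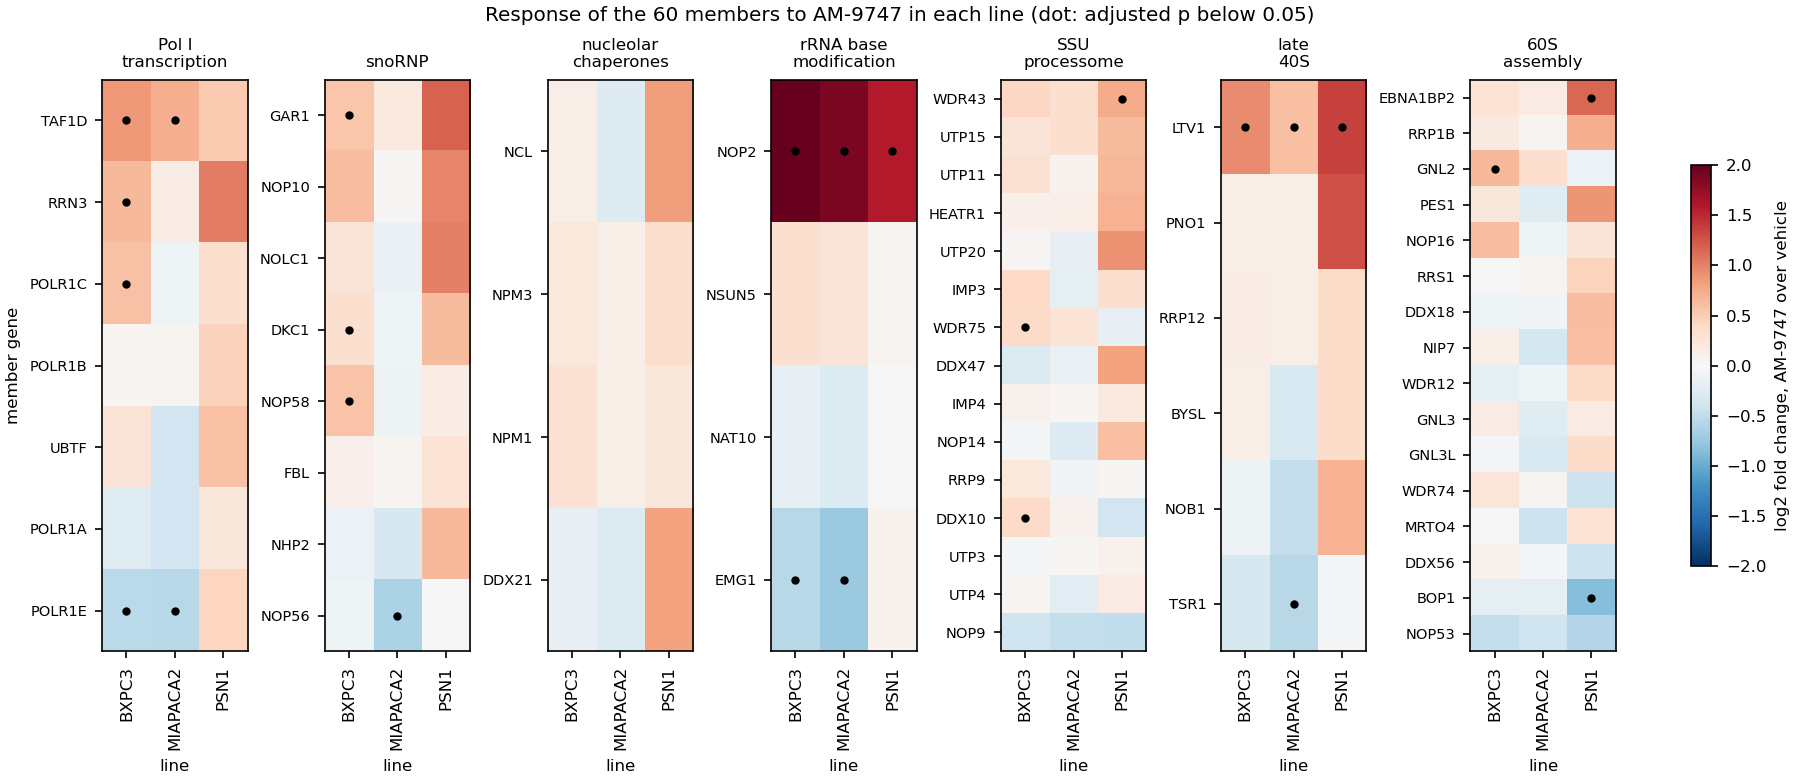
Response of the 60 members to AM-9747 by role: colour gives the log2 fold change of AM-9747 over vehicle in each line (columns), and a dot marks an adjusted p below 0.05. NOP2 is the most strongly coloured in each line (2.05, 1.89 and 1.58), and the PSN1 column is red for 51 of 60 members although 5 carry a dot.

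In BXPC3, 13 of 60 members were called (21.7%), 11 higher and 2 lower, against 29.2% of all genes tested (13.2% higher, 16% lower). The median log2 fold change of the members was 0.14, against 0.00 for all genes, and 42 members lay above 0. In MIAPACA2, 7 members were called (11.7%), 3 higher and 4 lower, against 13.6% of all genes (6.73% higher, 6.84% lower). The members' median there was -0.08 and 26 lay above 0. In PSN1, 5 members were called (8.33%), 4 higher and 1 lower, against 10.7% of all genes (4.52% higher, 6.17% lower). The members' median in PSN1 was 0.37, against 0.03 for all genes, with 51 of 60 above 0. The share of members called was thus below that of all genes in each line, but this order turned in 3 of 18 alternatives in BXPC3, 4 of 18 in MIAPACA2 and 7 of 18 in PSN1. Scaling by library totals alone in place of TMM (trimmed mean of M-values) shifted the median of all genes by 0.15 in MIAPACA2 and 0.33 in PSN1. With it the members' median in MIAPACA2 turned to 0.06 with 36 above 0, but relative to all genes it was -0.08 under both scalings. In PSN1 the members' median was 0.35 above that of all genes with totals and 0.34 above it with TMM, 0.20 with the mitochondrial share as a covariate (chosen after seeing the data), 0.12 with no filter on low counts, and 0.50 without vehicle replicate 1. With no filter the excess in BXPC3 was 0.01 in place of 0.14.

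These counts moved when libraries were left out, and so did those of all genes. In BXPC3 the 13 became 4 (6.67%) without any of vehicle replicates 1, 2 or 3, against 20.9 to 23.2% of all genes, and 25 (41.7%) without vehicle replicate 4, against 37.3%. Without AM-9747 replicate 2, 3 or 4 they became 5, 3 or 8, against 20.5 to 25.6% of all genes. In MIAPACA2 the 7 became 4 (6.67%) without vehicle replicate 3 or without AM-9747 replicate 1, 2 or 4, against 6.2 to 7.5% of all genes. In PSN1 the 5 became 20 (33.3%) without vehicle replicate 1, against 23% of all genes. They became 3 (5%) without vehicle replicate 3 or AM-9747 replicate 3, against 9.86% and 5.68%, and 1 (1.67%) without any of the other 5 libraries, against 2.77 to 5.05%. The members' share thus lay above that of all genes without BXPC3 vehicle replicate 4 or PSN1 vehicle replicate 1, which stood apart. Without MIAPACA2 AM-9747 replicate 3, which stood apart too, it lay below (16.7% against 17.3%). It also lay above without MIAPACA2 vehicle replicate 1 (11.7% against 8.87%) or MIAPACA2 AM-9747 replicate 1 (6.67% against 6.2%). NOP2 was called in each line with any 1 library left out.

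The members' summed counts were a small part of each library. As a share of the counts of nuclear genes they made up 0.584 to 0.691% in BXPC3 AM-9747 libraries, against 0.528 to 0.588% in BXPC3 vehicle libraries. In MIAPACA2 the share was 0.761 to 0.832% under AM-9747 and 0.717 to 0.739% under vehicle. In PSN1 it was 0.902 to 1.06% under AM-9747 and 0.651 to 0.949% under vehicle. NPM1 and NCL carry a large part of these sums, and without them the share in BXPC3 was 0.423 to 0.477% under AM-9747 and 0.374 to 0.405% under vehicle. For MIAPACA2 it was then 0.484 to 0.496% under AM-9747 and 0.427 to 0.467% under vehicle, and for PSN1 0.64 to 0.681% under AM-9747 and 0.477 to 0.539% under vehicle. Without NPM1 and NCL the AM-9747 and vehicle libraries did not overlap in any of the lines, while with them they overlapped in BXPC3 and PSN1. On this scale, with no TMM factors, the sum without NPM1 and NCL was higher under AM-9747 by 0.15 (log2) in MIAPACA2, where the median of all genes tested was higher by 0.14 and that of the members by 0.06. In PSN1 the sum was higher by 0.39, against 0.11 for the median of all genes, and in BXPC3 by 0.23, against 0.00. This sum is weighted towards abundant members and is given as a description with no test.

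**Figure D2:**
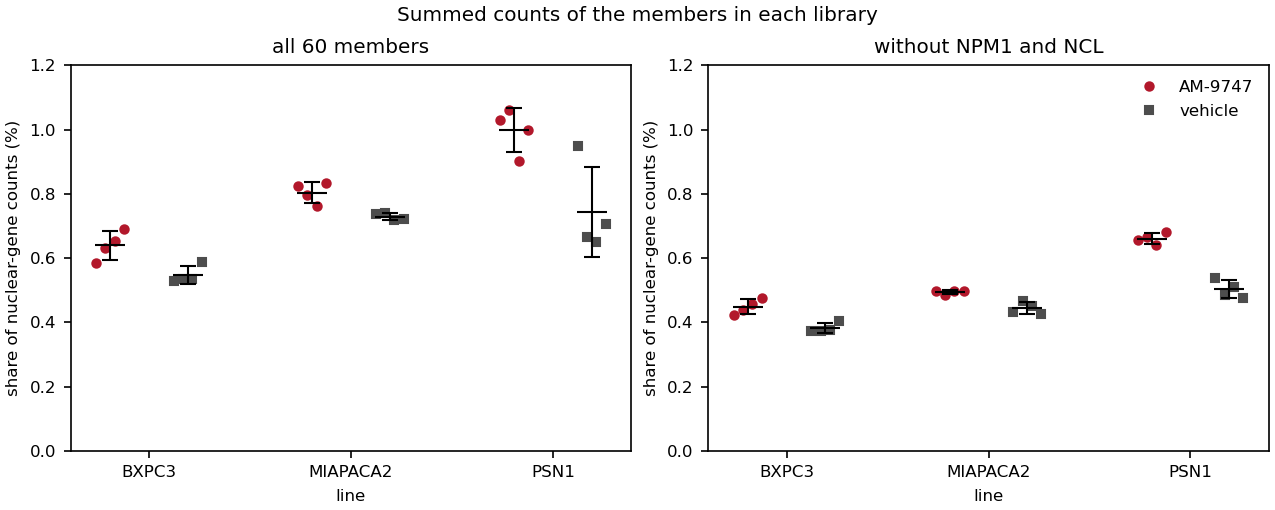
Summed counts of the members as a percentage of nuclear-gene counts in each library (points), with the mean and SD (bars, n = 4), for all 60 members and without NPM1 and NCL. AM-9747 libraries lie above vehicle libraries in each line without NPM1 and NCL, in MIAPACA2 by about as much as the median of all genes on this scale (log2 0.15 and 0.14). With NPM1 and NCL the groups overlap in BXPC3 (lowest AM-9747 library 0.584%, highest vehicle library 0.588%) and in PSN1, through the vehicle library at 0.949%.

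Among the 4 genes that modify rRNA bases, NOP2 was called in each line and EMG1 in BXPC3 and MIAPACA2. NOP2 (chr12:6556863-6568691, minus strand) had 259, 318, 426 and 611 CPM (counts scaled to a common library size, with TMM factors) in BXPC3 AM-9747 libraries, against 83.2, 90.6, 90 and 127 CPM in BXPC3 vehicle libraries. In MIAPACA2 it had 368, 397, 254 and 374 CPM under AM-9747 and 110, 78.1, 86.7 and 107 CPM under vehicle. In PSN1 it had 258, 385, 546 and 479 CPM under AM-9747 and 103, 123, 166 and 147 CPM under vehicle. Every AM-9747 library lay above every vehicle library of its line, and within BXPC3 AM-9747 the level ordered like the mitochondrial share (4.34, 6.16, 8.66 and 10.2% in the same order). The log2 fold changes were 2.05 ± 0.27 (SE, adjusted p = 0.00054), 1.89 ± 0.18 (adjusted p = 0.00034) and 1.58 ± 0.28 (adjusted p = 0.00824) in BXPC3, MIAPACA2 and PSN1. All 18 alternative settings in each line, the mitochondrial share as a covariate among them, called NOP2 higher. Per kilobase of exon, NOP2 stood at 86.1, 74.3 and 88.9 CPM under AM-9747 in BXPC3, MIAPACA2 and PSN1, against 20.9, 20.4 and 28.8 CPM under vehicle.

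EMG1 went the other way in 2 lines. It had 23.9, 24.2, 27.2 and 35.1 CPM in BXPC3 AM-9747 libraries, against 39.2, 36.9, 36.6 and 49.9 CPM in vehicle libraries. MIAPACA2 libraries had 22, 22.2, 24.5 and 25 CPM under AM-9747 and 47.9, 36.9, 37.1 and 38.4 CPM under vehicle. PSN1 libraries had 14.1, 15.5, 14.6 and 15.5 CPM under AM-9747 and 24.8, 12.8, 6.02 and 12.1 CPM under vehicle. The groups stood apart in BXPC3 and MIAPACA2 and overlapped in PSN1, where the vehicle libraries spread on both sides of the AM-9747 ones. The log2 fold change was -0.55 ± 0.17 (SE, adjusted p = 0.0305) in BXPC3, -0.75 ± 0.13 (adjusted p = 0.00524) in MIAPACA2 and 0.07 ± 0.36 (adjusted p = 0.919) in PSN1. The BXPC3 call was lost without vehicle replicate 1 or 3 or without AM-9747 replicate 1, 2 or 3 (adjusted p 0.0508 to 0.0935), at a mean of at least 5 CPM and in a joint fit of all 24 libraries (0.0597 to 0.186). The MIAPACA2 call was lost in the joint fit alone (0.0835). The EMG1 locus overlaps C1S on its own strand and LPCAT3 on the other. Under AM-9747 and vehicle, C1S averaged 32.5 and 56.9 CPM in BXPC3 and 17.5 and 7.39 CPM in MIAPACA2. LPCAT3 averaged 93.1 and 168 CPM in BXPC3 and 34.9 and 66.1 CPM in MIAPACA2 under AM-9747 and vehicle. Whether reads were shared between these genes was not tested. The other members of this role, NSUN5, a cytosine methyltransferase of large-subunit rRNA, and NAT10, an rRNA cytidine acetyltransferase, were called in no line, with log2 fold changes of 0.06 to 0.32 and -0.27 to 0.01.

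**Figure D3:**
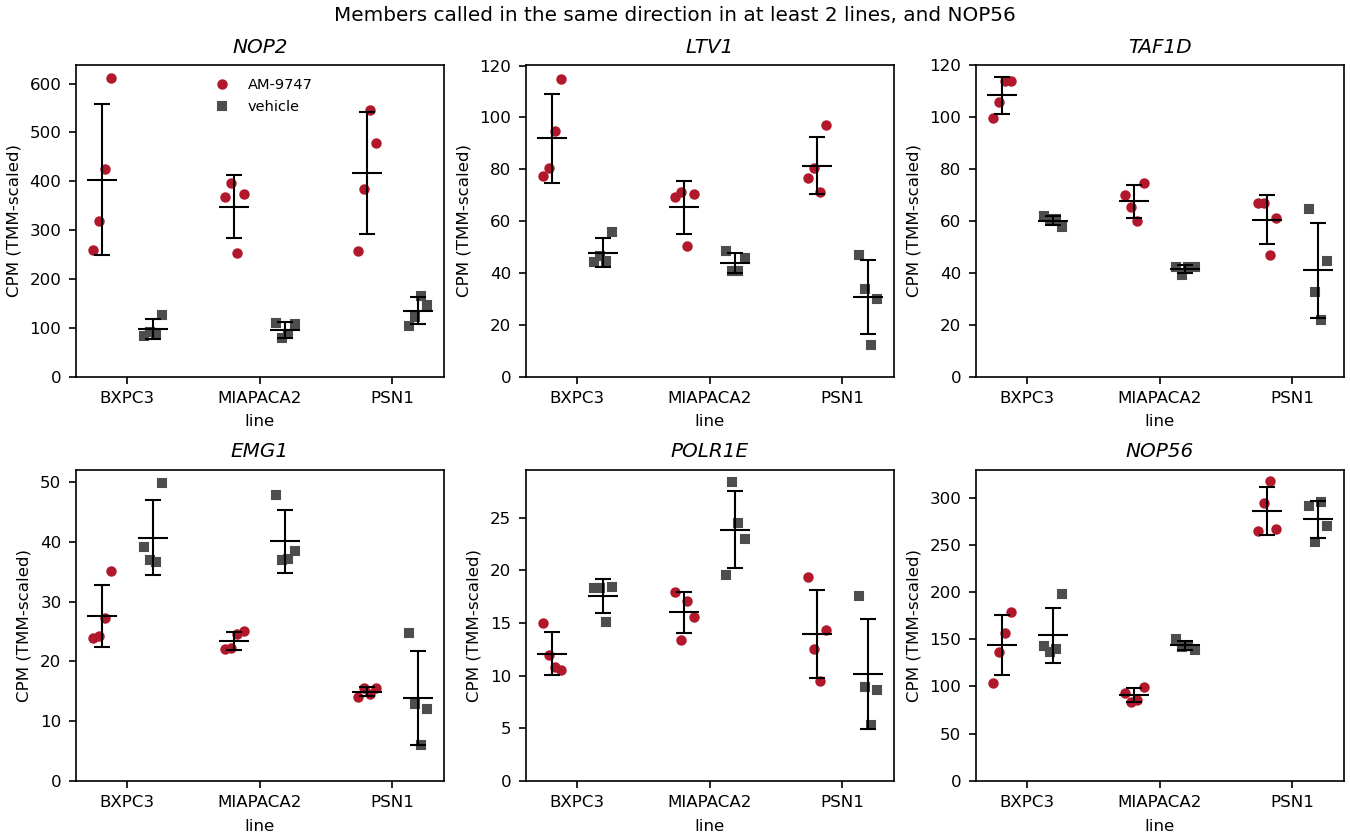
CPM in each library (points), with the mean and SD (bars, n = 4), for the members called in the same direction in at least 2 lines (NOP2, LTV1, TAF1D, EMG1 and POLR1E) and for NOP56. NOP2 AM-9747 libraries lie between 254 and 611 CPM, all above the vehicle libraries at 78.1 to 166 CPM, and NOP56 separates in MIAPACA2 but not in the other lines.

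Among the 6 late 40S genes, LTV1 rose in each line. It had 77.5, 80.4, 94.7 and 115 CPM in BXPC3 AM-9747 libraries, against 44.1, 46.5, 44.5 and 55.9 CPM in vehicle libraries. The MIAPACA2 levels were 69.4, 71.2, 50.2 and 70.4 CPM under AM-9747 and 48.5, 40.6, 40.6 and 45.9 CPM under vehicle. The PSN1 levels were 76.6, 80.5, 71.4 and 97.1 CPM under AM-9747 and 47, 33.8, 12.3 and 30.1 CPM under vehicle. No AM-9747 library overlapped the vehicle libraries of its line, although MIAPACA2 AM-9747 replicate 3 lay close to them. The log2 fold changes were 0.95 ± 0.16 (SE, adjusted p = 0.00171), 0.60 ± 0.14 (adjusted p = 0.0205) and 1.37 ± 0.34 (adjusted p = 0.0289). The BXPC3 call stood with any library left out. In MIAPACA2 it was lost without vehicle replicate 3 or AM-9747 replicate 1, 2 or 4 (adjusted p 0.0647 to 0.0815) and in the joint fit (0.207), and in PSN1 without vehicle replicate 2 or 4 or any AM-9747 replicate (0.0548 to 0.0854) and with the mitochondrial share as a covariate (0.0632).

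TSR1, a GTPase-like 40S assembly factor, fell in MIAPACA2. Its MIAPACA2 libraries had 56.9, 55.2, 62.8 and 56.5 CPM under AM-9747 and 72.2, 112, 91.1 and 70.5 CPM under vehicle, without overlap (log2 -0.55 ± 0.15 SE, adjusted p = 0.036). The call was lost without vehicle replicate 2 or 3 or AM-9747 replicate 1, 2 or 4 (adjusted p 0.0595 to 0.107), and with library totals (0.148). In BXPC3 TSR1 had 67.4, 63.3, 58.8 and 54 CPM under AM-9747 and 80.9, 82.6, 74.4 and 67 CPM under vehicle. For PSN1 the levels were 48.9, 38.5, 37.1 and 45.1 CPM under AM-9747 and 49.1, 37, 43.8 and 40 CPM under vehicle. The groups overlapped in BXPC3 and in PSN1. SGSM2 and SRR overlap TSR1 on the opposite strand, at 76.8 and 24.8 CPM in MIAPACA2 under AM-9747 and 111 and 27.2 CPM under vehicle. In PSN1 SGSM2 averaged 60.3 CPM under AM-9747 and 199 CPM under vehicle. Whether TSR1 counts hold reads of either was not tested. BYSL, NOB1, which cuts the end of the small-subunit rRNA, PNO1 and RRP12 were called in no line.

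Of the 7 Pol I genes, 4 were called in BXPC3 (3 higher, 1 lower), 2 in MIAPACA2 (1 higher, 1 lower) and 0 in PSN1 (57.1%, 28.6% and 0%, against 29.2%, 13.6% and 10.7% of all genes), where 2 had an unadjusted p below 0.05. TAF1D (chr11:93729948-93784391, minus strand) had 99.6, 106, 114 and 114 CPM in BXPC3 AM-9747 libraries, against 61.9, 60.6, 60.6 and 57.6 CPM in vehicle libraries. For MIAPACA2 the levels were 69.9, 65.4, 60 and 74.8 CPM under AM-9747 and 42.2, 39, 42.4 and 42.4 CPM under vehicle. In PSN1 it had 66.8, 66.9, 46.8 and 61.1 CPM under AM-9747 and 64.8, 32.6, 22 and 44.4 CPM under vehicle. The groups were far apart in BXPC3 and MIAPACA2 and overlapped in PSN1, through vehicle replicate 1. The log2 fold changes were 0.86 ± 0.10 (SE, adjusted p = 0.000339), 0.73 ± 0.11 (adjusted p = 0.00266) and 0.53 ± 0.30 (adjusted p = 0.277). The calls in BXPC3 and MIAPACA2 stood with any library left out, and the MIAPACA2 call was lost in the joint fit (adjusted p = 0.0522). CEP295, MED17, C11orf54 and AP001273.2 overlap TAF1D on the opposite strand. In BXPC3 they averaged 39.2, 26.7, 6.98 and 9.29 CPM under AM-9747 and 32.8, 25, 13.1 and 8.48 CPM under vehicle. Their MIAPACA2 means were 37.8, 25, 15.3 and 9.72 CPM under AM-9747 and 28, 27.7, 18.6 and 8.65 CPM under vehicle. Whether TAF1D counts hold reads of these was not tested.

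POLR1E, the subunit of the Pol I-specific heterodimer known in yeast as Rpa49, had 15, 12, 10.8 and 10.5 CPM in BXPC3 AM-9747 libraries, against 18.3, 18.3, 15.1 and 18.4 CPM in vehicle libraries. In MIAPACA2 it had 17.9, 13.4, 17.1 and 15.6 CPM under AM-9747 and 19.6, 28.4, 24.5 and 23 CPM under vehicle. PSN1 libraries had 19.4, 12.5, 9.44 and 14.3 CPM under AM-9747 and 17.6, 8.95, 5.34 and 8.6 CPM under vehicle. The AM-9747 libraries were the lower ones in BXPC3 and MIAPACA2, narrowly in BXPC3, and overlapped the vehicle libraries in PSN1. The log2 fold changes were -0.54 ± 0.14 (SE, adjusted p = 0.0195), -0.55 ± 0.15 (adjusted p = 0.0336) and 0.43 ± 0.37 (adjusted p = 0.487). The BXPC3 call was lost without vehicle replicate 1 or 2 or AM-9747 replicate 2 or 3 (adjusted p 0.0522 to 0.0679) and in the joint fit (0.232). The MIAPACA2 call was lost without vehicle replicate 2 or 3 or AM-9747 replicate 1, 2 or 4 (0.0682 to 0.0954), with library totals and in the joint fit (up to 0.245).

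RRN3, which carries Pol I to the rDNA promoter, rose in BXPC3. It had 90.5, 81.5, 67.3 and 64.3 CPM in BXPC3 AM-9747 libraries, against 56.4, 53.7, 52.5 and 31.2 CPM in vehicle libraries (log2 0.65 ± 0.20 SE, adjusted p = 0.0317). MIAPACA2 libraries had 61.8, 54.8, 57.7 and 63.4 CPM under AM-9747 and 55.3, 65.3, 56.1 and 40.9 CPM under vehicle. The PSN1 levels were 91.9, 74.1, 54.7 and 58.7 CPM under AM-9747 and 53.8, 40.8, 9.99 and 28.4 CPM under vehicle (log2 1.03 ± 0.41 SE, adjusted p = 0.128). The groups stood apart in BXPC3 and PSN1 and overlapped in MIAPACA2. The BXPC3 call was lost without vehicle replicate 2 or 3 or AM-9747 replicate 1, 2 or 3 (adjusted p 0.0529 to 0.0818), and with library totals, with no filter on low counts and in the joint fit (0.0507 to 0.211). PDXDC1 overlaps RRN3 on the opposite strand at 195 and 178 CPM in BXPC3 AM-9747 and vehicle libraries, and the RRN3P1 pseudogene reached a group mean of 16 CPM, and whether RRN3 counts hold reads of either was not tested.

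The catalytic subunits showed no call in any line. POLR1A, the largest Pol I subunit, had 46.1, 35.5, 28.7 and 25.9 CPM in BXPC3 AM-9747 libraries and 45.3, 44.3, 40.3 and 30.8 CPM in vehicle libraries. Its MIAPACA2 levels were 47.1, 47.7, 77.4 and 54.8 CPM under AM-9747 and 62.1, 104, 79.3 and 57.4 CPM under vehicle. Its PSN1 levels were 71.7, 50.2, 60.2 and 47.6 CPM under AM-9747 and 54.3, 55.8, 34.3 and 44.8 CPM under vehicle. The groups overlapped in each line, with log2 fold changes of -0.24, -0.39 and 0.23. POLR1B, the second-largest subunit, had 40.5, 37.5, 28.2 and 29.5 CPM in BXPC3 AM-9747 libraries and 36.9, 39, 31 and 24.9 CPM in vehicle libraries. Its MIAPACA2 levels were 49.4, 46.2, 48.8 and 37.2 CPM under AM-9747 and 34.3, 57.4, 47.2 and 39.8 CPM under vehicle. Its PSN1 levels were 61.5, 46.9, 44.5 and 59.2 CPM under AM-9747 and 42, 45.7, 25 and 36.7 CPM under vehicle. These groups overlapped too, with log2 fold changes of 0.04, 0.05 and 0.46. POLR1C, which Pol I shares with Pol III, and GAR1, NOP58, NOP53, WDR75 and DDX10 below, were picked for mention after their values were seen. POLR1C was called higher in BXPC3 (log2 0.58 ± 0.19 SE, adjusted p = 0.0398).

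UBTF, the HMG-box factor that holds rDNA in an open state, responded differently in the lines. It had 100, 99.4, 93.4 and 91.1 CPM in BXPC3 AM-9747 libraries, against 82.1, 78.5, 78.1 and 86 CPM in vehicle libraries. The MIAPACA2 levels were 84.1, 73.6, 104 and 86.4 CPM under AM-9747 and 102, 136, 119 and 103 CPM under vehicle. For PSN1 the levels were 107, 88.8, 115 and 92.5 CPM under AM-9747 and 63.4, 75.3, 53.6 and 67.9 CPM under vehicle. AM-9747 libraries were all the higher ones in BXPC3 and PSN1, and in MIAPACA2 all but replicate 3 lay below the vehicle libraries. None of the lines alone called it (log2 0.25 ± 0.10 SE, -0.38 ± 0.14 and 0.58 ± 0.20, adjusted p = 0.0815, 0.102 and 0.0862). The joint test of a difference between the 3 responses did (edgeR, adjusted p = 0.00564), and among the pairs the PSN1 response exceeded the MIAPACA2 response by 1.03 ± 0.21 (log2, SE, adjusted p = 0.00259). This difference was called under all 9 alternative settings (adjusted p at most 0.0332) and with each of the 24 libraries left out (at most 0.0173).

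Over all members, 2 of 60 (3.33%) were called in the joint test of a difference between the lines, against 12.1% of all genes, and 17 had an unadjusted p below 0.05. Between pairs of lines, 6 members had a higher response in PSN1 than in MIAPACA2 (UBTF, NIP7, PES1, EBNA1BP2, NOP14 and NOP56), and 0 a lower one, against 10.4% of all genes (5.64% higher, 4.8% lower). Of these 6 only UBTF and NIP7 passed the joint test. The pair tests use 1 spread (biological coefficient of variation 46.4%) for lines whose spreads differ, and no alternative settings are given for them. Between MIAPACA2 and BXPC3 0 were called, against 2.07% of all genes (1.49% higher, 0.581% lower). Between PSN1 and BXPC3 0 were called too, against 8.33% of all genes (4.75% higher, 3.58% lower). At an unadjusted p below 0.05 these 2 comparisons held 6 and 9 members. No share of all genes at an unadjusted p is given for these counts or for the 17 above. The other member called in the joint test was NIP7, a 60S biogenesis factor, which had 62.5, 54, 59.2 and 59 CPM in BXPC3 AM-9747 libraries and 55.3, 52.5, 54.4 and 54.1 CPM in vehicle libraries. For MIAPACA2 the levels were 48, 45.6, 52.6 and 51.8 CPM under AM-9747 and 60.9, 73.8, 60.8 and 60.9 CPM under vehicle. In PSN1 it had 59.2, 53.2, 39.7 and 54.6 CPM under AM-9747 and 53.2, 28.4, 25.7 and 25.9 CPM under vehicle. The AM-9747 libraries lay below the vehicle ones in MIAPACA2, and in PSN1 above all vehicle libraries but replicate 1, which lay among them. COG8 overlaps NIP7 on the opposite strand, at 6.73, 20.1 and 8.17 CPM under AM-9747 in BXPC3, MIAPACA2 and PSN1. Under vehicle COG8 averaged 16.3, 38.2 and 5.75 CPM, and whether reads were shared was not tested. NIP7 had a joint adjusted p of 0.0377, and the PSN1 response exceeded the MIAPACA2 response by 1.00 ± 0.27 (log2, SE, adjusted p = 0.0185). This call stood in only 6 of the 24 fits that left out a library (adjusted p 0.000153 without PSN1 vehicle replicate 1, up to 0.101 without PSN1 vehicle replicate 4). Leaving out 1 library moved the count of 2 members to between 1 and 22, with 22 without PSN1 vehicle replicate 1, 6 without BXPC3 vehicle replicate 4, 5 without PSN1 AM-9747 replicate 3, 4 without MIAPACA2 vehicle replicate 4, 3 without BXPC3 AM-9747 replicate 1 or MIAPACA2 AM-9747 replicate 3, 2 without PSN1 AM-9747 replicate 4, and 1 without any of the others.

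**Figure D4:**
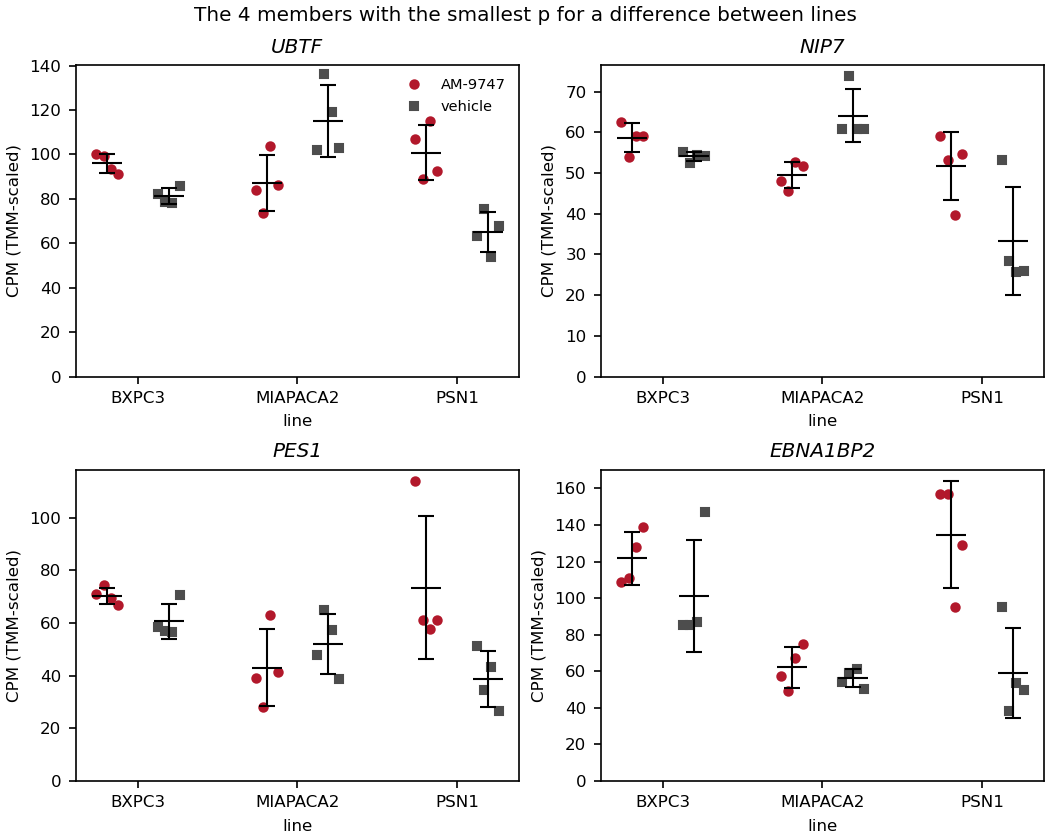
CPM in each library (points), with the mean and SD (bars, n = 4), for the 4 members with the smallest p in the test of a difference of the response between the lines. UBTF AM-9747 libraries lie above vehicle libraries in BXPC3 and PSN1 and mostly below them in MIAPACA2, and PES1 in PSN1 is widened by an AM-9747 library at 114 CPM.

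PES1 and EBNA1BP2 came next in that test without passing it (adjusted p = 0.0577 and 0.0639). PES1, a member of the PES1-BOP1-WDR12 complex of 60S assembly, had 70.9, 74.3, 69.5 and 67 CPM in BXPC3 AM-9747 libraries and 58.4, 57, 56.6 and 70.5 CPM in vehicle libraries. Its MIAPACA2 levels were 39.2, 28.2, 63.1 and 41.3 CPM under AM-9747 and 47.8, 64.9, 57.3 and 38.6 CPM under vehicle. Its PSN1 levels were 114, 61.1, 57.7 and 61 CPM under AM-9747 and 51.1, 34.5, 43.1 and 26.6 CPM under vehicle. The groups stood apart in PSN1 only, with a log2 fold change of 0.88 ± 0.28 (SE, adjusted p = 0.0688). EBNA1BP2, whose yeast counterpart Ebp2 is needed for 60S precursors, had 157, 157, 95.3 and 129 CPM in PSN1 AM-9747 libraries, against 94.9, 38.4, 53.6 and 49.8 CPM in vehicle libraries. In BXPC3 it had 109, 111, 128 and 139 CPM under AM-9747 and 85.3, 85.5, 86.7 and 147 CPM under vehicle. In MIAPACA2 it had 57.1, 49.4, 67.2 and 74.7 CPM under AM-9747 and 54.2, 58.9, 61.1 and 50.4 CPM under vehicle. It was called in PSN1 (log2 1.15 ± 0.28 SE, adjusted p = 0.0284), where the groups just failed to touch, and in neither of the other lines. Without any of vehicle replicates 2, 3 or 4 or AM-9747 replicates 1, 2 or 4 that call was lost (adjusted p 0.0533 to 0.0983).

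The remaining 60S assembly calls were of single lines, and none was made in MIAPACA2, where 4 of the 16 genes had an unadjusted p below 0.05. With EBNA1BP2, the 60S calls were of GNL2 in BXPC3 and of EBNA1BP2 and BOP1 in PSN1. Of all genes, 29.2% were called in BXPC3, 13.6% in MIAPACA2 and 10.7% in PSN1. BOP1, the partner of PES1, fell in PSN1, with 47.6, 44.9, 49.6 and 37.5 CPM under AM-9747 and 74, 75.9, 92.6 and 71.9 CPM under vehicle (log2 -0.85 ± 0.20 SE, adjusted p = 0.0221). In BXPC3 it had 21.6, 27.9, 26.8 and 23.6 CPM under AM-9747 and 25.9, 19.4, 27.9 and 40.2 CPM under vehicle. MIAPACA2 libraries had 50.1, 54.9, 48.4 and 41.3 CPM under AM-9747 and 47.1, 50.3, 60.6 and 69.2 CPM under vehicle. Only the PSN1 libraries separated, and there PES1 lay higher under AM-9747 while its partner lay lower. The BOP1 call was lost without vehicle replicate 2 or 4 or AM-9747 replicate 1, 2 or 4 (adjusted p 0.051 to 0.0869) and with library totals (0.176). SCX overlaps BOP1 on the opposite strand, at 5.53 CPM under AM-9747 and 13.1 CPM under vehicle in PSN1. Whether BOP1 counts hold reads of SCX was not tested.

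GNL2, a nucleolar GTPase known in yeast as Nog2, rose in BXPC3. It had 106, 127, 143 and 187 CPM in BXPC3 AM-9747 libraries, against 75.2, 83.8, 75.5 and 125 CPM in vehicle libraries (log2 0.65 ± 0.22 SE, adjusted p = 0.0462). The MIAPACA2 levels were 78.8, 74.8, 51.2 and 83.3 CPM under AM-9747 and 66.4, 47.9, 47.5 and 69.3 CPM under vehicle. PSN1 libraries had 205, 297, 370 and 473 CPM under AM-9747 and 240, 368, 506 and 291 CPM under vehicle. The groups overlapped in all of the lines, in BXPC3 through vehicle replicate 4. The call was lost without vehicle replicate 1, 2 or 3 or AM-9747 replicate 2, 3 or 4 (adjusted p 0.0716 to 0.126) and in the joint fit (0.126). NOP53 lay lower under AM-9747 in each line without a call (log2 -0.48, -0.40 and -0.58, adjusted p = 0.186, 0.0761 and 0.114).

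Of the 8 snoRNP genes, 3 were called in BXPC3, all higher (37.5%, against 29.2% of all genes), and 1 in MIAPACA2, lower (12.5%, against 13.6%). None was called in PSN1, where 2 had an unadjusted p below 0.05 and all 8 had log2 fold changes of at least 0.00. NOP56, a core protein of box C/D snoRNPs, had 93.5, 83.6, 85.2 and 99.7 CPM in MIAPACA2 AM-9747 libraries, against 150, 142, 143 and 139 CPM in vehicle libraries (log2 -0.64 ± 0.11 SE, adjusted p = 0.00374). In BXPC3 it had 104, 136, 157 and 179 CPM under AM-9747 and 143, 136, 140 and 198 CPM under vehicle. The PSN1 levels were 265, 294, 318 and 267 CPM under AM-9747 and 291, 253, 295 and 270 CPM under vehicle. The MIAPACA2 groups were well separated, and the call held under all 18 alternatives, while the groups of the other lines overlapped. The joint test of a difference between the 3 lines did not call NOP56 (adjusted p = 0.0667), while the PSN1 response exceeded the MIAPACA2 response by 0.71 ± 0.22 (log2, SE, adjusted p = 0.0437). Its partner NOP58 was called in BXPC3 only, higher (log2 0.57 ± 0.17 SE, adjusted p = 0.0292), with groups that overlapped.

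DKC1, the pseudouridine synthase of box H/ACA snoRNPs, had 170, 178, 167 and 159 CPM in BXPC3 AM-9747 libraries, against 134, 144, 128 and 135 CPM in vehicle libraries (log2 0.32 ± 0.10 SE, adjusted p = 0.0323). For MIAPACA2 the levels were 105, 92.1, 113 and 113 CPM under AM-9747 and 114, 126, 115 and 101 CPM under vehicle. For PSN1 the levels were 173, 148, 113 and 122 CPM under AM-9747 and 149, 73.1, 55.3 and 74.3 CPM under vehicle. Separation was seen in BXPC3 alone, and that call was lost without vehicle replicate 1, 2 or 3 or AM-9747 replicate 2 or 3 (adjusted p 0.0554 to 0.114), with no filter on low counts and in the joint fit (0.208 to 0.401). GAR1, another box H/ACA protein, was called in BXPC3 (log2 0.56 ± 0.16 SE, adjusted p = 0.0231) and had a log2 fold change of 1.18 ± 0.40 in PSN1 (adjusted p = 0.0834).

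FBL, the 2'-O-methyltransferase of box C/D snoRNPs, had 152, 182, 196 and 222 CPM in BXPC3 AM-9747 libraries and 154, 134, 168 and 249 CPM in vehicle libraries. In MIAPACA2 it had 89.6, 82.7, 99.3 and 91.7 CPM under AM-9747 and 85.1, 96.5, 94.6 and 78.4 CPM under vehicle. In PSN1 it had 210, 193, 192 and 196 CPM under AM-9747 and 211, 136, 158 and 132 CPM under vehicle. The groups overlapped in each line and the log2 fold changes were 0.10, 0.06 and 0.28. NHP2, NOP10 and NOLC1 were called in none.

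Of the 4 nucleolar chaperone and scaffold genes (NCL, NPM1, NPM3 and DDX21), none was called in any line. Of all genes, 29.2%, 13.6% and 10.7% were called in BXPC3, MIAPACA2 and PSN1. NPM1 was the most abundant member in each group. NPM1, the main nucleolar chaperone, had 803, 930, 1025 and 1249 CPM in BXPC3 AM-9747 libraries and 748, 777, 764 and 1010 CPM in vehicle libraries. MIAPACA2 libraries had 1619, 1554, 1156 and 1658 CPM under AM-9747 and 1518, 1326, 1264 and 1484 CPM under vehicle. PSN1 libraries had 1764, 2195, 1485 and 1860 CPM under AM-9747 and 2697, 1124, 886 and 1411 CPM under vehicle. All groups overlapped, and the log2 fold changes were 0.29, 0.12 and 0.23. NCL, nucleolin, had 782, 951, 833 and 821 CPM in BXPC3 AM-9747 libraries and 743, 735, 739 and 860 CPM in vehicle libraries. The MIAPACA2 levels were 706, 594, 784 and 810 CPM under AM-9747 and 867, 981, 903 and 779 CPM under vehicle. The PSN1 levels were 1257, 915, 520 and 598 CPM under AM-9747 and 974, 252, 227 and 353 CPM under vehicle. The groups overlapped in each line, in PSN1 through vehicle replicate 1, the library with the lowest mitochondrial share of that group. With that library left out NCL was called in PSN1 (log2 1.5, adjusted p = 0.0123, against 0.84 ± 0.45 and 0.251 with it), and with the mitochondrial share as a covariate the log2 fold change was 0.16.

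The SSU processome had 2 calls among 15 genes in BXPC3 (WDR75 and DDX10, both higher), 0 in MIAPACA2, where 1 had an unadjusted p below 0.05, and 1 in PSN1 (13.3%, 0% and 6.67%, against 29.2%, 13.6% and 10.7% of all genes). WDR43, known in yeast as Utp5 and part of the subcomplex that joins the precursor early, had 98.9, 85.1, 68.6 and 68.4 CPM in PSN1 AM-9747 libraries, against 58.5, 39.9, 42.7 and 45.3 CPM in vehicle libraries (log2 0.74 ± 0.21 SE, adjusted p = 0.0443). In BXPC3 it had 72.2, 61.4, 59.2 and 56.5 CPM under AM-9747 and 54.6, 51.1, 47.6 and 34.3 CPM under vehicle. For MIAPACA2 the levels were 71.4, 64.5, 80.2 and 76.1 CPM under AM-9747 and 47.9, 81.9, 63.6 and 44.5 CPM under vehicle. AM-9747 libraries lay above vehicle libraries in BXPC3 and PSN1 and overlapped them in MIAPACA2. The PSN1 call was lost without any single library other than vehicle replicate 1 (adjusted p 0.0656 to 0.142), and with no filter on low counts, with mitochondrial genes left out and with the mitochondrial share as a covariate (0.051 to 0.122). WDR75, another early-joining protein, and the helicase DDX10 each rose by 0.38 on the log2 scale in BXPC3 (adjusted p = 0.0388 and 0.0274).

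In the mean response of the 3 lines, from a fit of all 24 libraries, 15 of 60 members were called (25%), 11 higher and 4 lower, against 23.3% of all genes (12.6% higher, 10.7% lower). NOP2 (log2 1.85, adjusted p = 4.99e-09), LTV1 (0.97, 2e-05) and TAF1D (0.70, 0.000135) led the rises. GAR1 (0.64), RRN3 (0.61), EBNA1BP2 (0.53), WDR43 (0.50), UTP15 (0.41), UTP11 (0.35), RRP1B (0.33) and POLR1C (0.28) were the others. NOP53 (-0.48), EMG1 (-0.41), BOP1 (-0.40) and TSR1 (-0.30) fell. This fit uses 1 spread for lines whose spreads differ, and with library totals the calls became 25 higher and 0 lower. The median log2 fold change of all genes then moved from 0.09 to 0.24. The members' median lay 0.08 above it under both scalings. Leaving out PSN1 vehicle replicate 1 gave 24 calls in place of 15. Over all genes, 4772 to 6692 were called with a library left out, in place of 5331.

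Some features of the members were not used to choose them. An annotated small nucleolar RNA lies inside 9 of the 60 genes on the same strand (15.0%), against 269 of 19951 protein-coding genes of GENCODE 29 (1.35%). TAF1D holds 8, NOP56 holds 5, and NOP58, DKC1, NCL, WDR43, TSR1, NOP53 and GNL3 hold 1 to 6 each. These host genes moved in both directions: of the 9, 3 were called higher in BXPC3 (0 lower), and in MIAPACA2 1 was called higher (TAF1D) and 2 lower (NOP56 and TSR1). In PSN1 WDR43 alone was called, higher. The shares called were 33.3%, 33.3% and 11.1%, against 29.2%, 13.6% and 10.7% of all genes. Among the 17 members with CACGTG in the promoter, 3 were called higher in BXPC3, 2 in MIAPACA2 and 4 in PSN1 (NOP2, LTV1, EBNA1BP2 and WDR43), with 0 lower in these lines, against 13.2%, 6.73% and 4.52% of all genes higher. The shares of these 17 called were 17.6%, 11.8% and 23.5%, against 29.2%, 13.6% and 10.7% of all genes. Among the 35 whose promoter lacks it, 7 were higher and 1 lower in BXPC3, 1 higher and 3 lower in MIAPACA2, and none was called in PSN1. Of all genes, 16%, 6.84% and 6.17% were lower in these lines. BOP1 (lower in PSN1), POLR1E (lower in BXPC3 and MIAPACA2) and NOP58 (higher in BXPC3) have no promoter sequence and are in neither set. With 1 of 8 libraries left out, the PSN1 calls of LTV1, EBNA1BP2 and WDR43 were lost in 6, 6 and 7 fits. The median log2 fold change in PSN1 was 0.60 for members with the motif and 0.35 for those without it. In MIAPACA2 the medians were 0.02 with it and -0.09 without it, and in BXPC3 both were 0.14. No test was run on this split.

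The vehicle libraries show how the lines differ before treatment, in comparisons that share groups with one another. Of the 60 members, 30 were called in MIAPACA2 vehicle against BXPC3 vehicle (17 higher, 13 lower), against 65% of all genes (31.1% higher, 33.9% lower). In PSN1 vehicle against BXPC3 vehicle 23 were called (14 higher, 9 lower), against 59% of all genes (28.9% higher, 30.2% lower), and in PSN1 vehicle against MIAPACA2 vehicle 32 (21 higher, 11 lower), against 47.3% (25.3% higher, 21.9% lower). With the mitochondrial share as a covariate the counts with PSN1 became 5 and 15. The share is higher in each PSN1 vehicle library but replicate 1 than in any other vehicle library, so it and the line can hardly be told apart. Members named next were chosen after their values were seen.

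GNL2 had 240, 368, 506 and 291 CPM in PSN1 vehicle libraries, against 66.4, 47.9, 47.5 and 69.3 CPM in MIAPACA2 and 75.2, 83.8, 75.5 and 125 CPM in BXPC3 vehicle libraries. DDX10 had 256, 108, 145 and 114 CPM in PSN1, against 33.1, 42.4, 35.8 and 33 CPM in MIAPACA2 and 26.5, 27, 27.4 and 28.7 CPM in BXPC3. The helicase gene DDX47 had 29.5, 19.4, 12.1 and 11.3 CPM in PSN1, against 86.8, 115, 107 and 71.9 CPM in MIAPACA2 and 152, 149, 138 and 142 CPM in BXPC3. PSN1 thus lay outside both other lines for each, above for GNL2 and DDX10 and below for DDX47. Against BXPC3 vehicle the log2 differences of PSN1 vehicle were 2.08 ± 0.29, 2.59 ± 0.28 and -2.92 ± 0.31 (SE, adjusted p = 0.00025, 4.74e-05 and 3.97e-05). Against MIAPACA2 vehicle they were 2.73 ± 0.29, 2.22 ± 0.28 and -2.28 ± 0.32 (adjusted p = 3.79e-05, 0.000133 and 0.000256). With the mitochondrial share as a covariate the GNL2 difference from BXPC3 was no longer called (adjusted p = 0.16), and the others were called under all 18 alternatives. RRP1B, a 60S factor, had 97.9, 119, 109 and 89.5 CPM in MIAPACA2 vehicle libraries, against 53.7, 51.1, 48.1 and 40 CPM in BXPC3 vehicle libraries (log2 1.08 ± 0.14 SE, adjusted p = 6.56e-05). NOP9, of the SSU processome here, had 23.9, 38.7, 33.5 and 28.3 CPM in MIAPACA2, against 84.5, 74.7, 82.2 and 59.1 CPM in BXPC3 (log2 -1.30 ± 0.17 SE, adjusted p = 8.32e-05).

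Per kilobase of exon, NPM1 was the most abundant member in each of the 6 groups, at 262, 391 and 477 CPM in AM-9747 groups of BXPC3, MIAPACA2 and PSN1 and 215, 365 and 400 CPM in their vehicle groups. NOP10, NCL and FBL followed it in BXPC3 and PSN1 groups. Members' median level was 14.6, 12.1 and 16.5 CPM per kilobase under AM-9747 and 12.1, 13.3 and 12.3 under vehicle. UTP20 was the lowest in every group but PSN1 AM-9747, where EMG1 was, at 2.38 CPM per kilobase. NOP2 was among the 5 highest members in each AM-9747 group and in none of the vehicle groups.

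**Figure D5:**
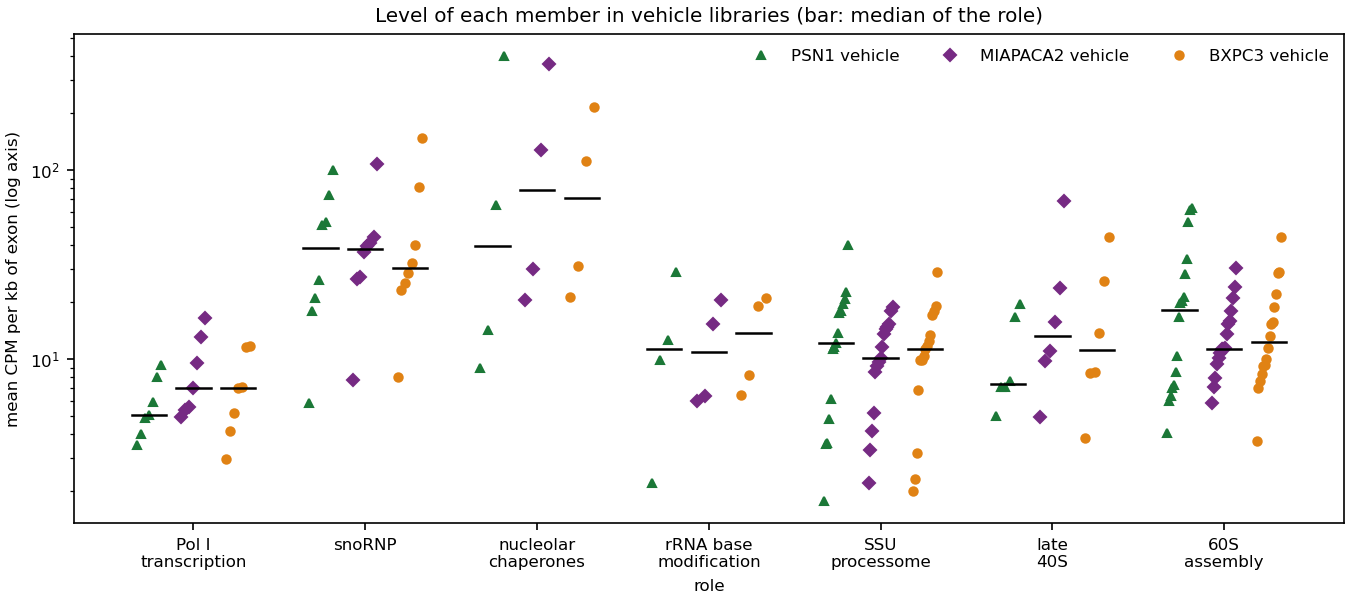
Level of each member in vehicle libraries as mean CPM per kilobase of exon (log axis, n = 4), by role and line, with the median of each role as a bar. The chaperone and scaffold genes, with NPM1 at 215 to 400, and the snoRNP genes have the highest medians. The Pol I genes have the lowest median in each line.

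Other ribosome biogenesis genes, 96 of a list of 97 found, were tested in the same fits; those named here were chosen after their values were seen. In BXPC3 18 of the 95 tested were called higher and 6 lower (25% of the 96, against 29.2% of all genes), in MIAPACA2 4 of 96 higher and 8 lower (12.5%, against 13.6%), and in PSN1 7 of 95 higher and 1 lower (8.33%, against 10.7%). These shares lie near or below those of all genes. None was called in the same direction in all lines. RRP7A, an SSU processome gene, fell in BXPC3 (log2 -1.67 ± 0.21 SE, adjusted p = 0.000416) and MIAPACA2 (-1.30 ± 0.14, adjusted p = 0.000615), and EXOSC2, a subunit of the RNA exosome, NLE1 and WDR46 fell in these lines too. DDX51, a helicase of 60S assembly, rose in both (1.19 ± 0.22, adjusted p = 0.00333, and 0.84 ± 0.19, adjusted p = 0.0144), as did DDX55. BRIX1, NOL10, NOM1, SDAD1 and POLR2K rose in BXPC3 and PSN1, POLR2K, a subunit shared by all RNA polymerases, by 0.64 ± 0.19 (adjusted p = 0.0291) and 1.45 ± 0.27 (adjusted p = 0.0103).

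Across the 24 libraries the members moved together only in part: the median Pearson r of a member's log2 CPM with the mean z-score of all members was 0.414, from -0.233 for DDX56 to 0.821 for GAR1. Outside the members, the most similar patterns were those of NUP35 (r = 0.943), UBE2Q1 (0.921), MRPS35 (0.919), RRP15 (0.903) and ATOX1 (0.901). The libraries share lines and treatments, so these values describe the 24 libraries only.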

How the data were processed

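The authors deposited raw counts per gene for 24 poly(A) libraries, made with a directional kit per the labels' protocols. The submitters' processing notes name fastp 0.19.8, HISAT2 2.2.0, GRCh38, R 4.0.2 and DESeq2 1.34.0, with no counter or strand setting given in the sources used here, so reads of overlapping or antisense genes may be mixed. Gene names, lengths and coordinates follow GENCODE 29 and promoters RefSeq.

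The members and all gene lists were chosen with earlier results of these data known. Each line was fitted alone with edgeR 4.0.16 (R 4.3.3, TMM scaling, filterByExpr, quasi-likelihood test, Benjamini-Hochberg adjustment over 17638, 18090 and 18287 genes in BXPC3, MIAPACA2 and PSN1). Differences between lines and the mean response came from a fit of all 24 libraries (22883 genes). CPM are TMM-scaled, and their precision is set by 22.4 to 45.6 M counts per library. No pair of libraries of a group agreed within sampling noise. The fits were also run on simulated counts, drawn independently for each library and with no library set apart. That run cannot show how the fits behave with outlying libraries such as those found here.

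Values per library were printed for 21 members: in each line the 4 largest called rises and the 4 largest called falls, members called alike in at least 2 lines, the 4 with the smallest p for a difference between lines, and 8 representatives of their role. Alternatives were DESeq2 1.42.0, limma 3.58.1 voom with quality weights, other scalings and filters, mitochondrial genes left out, a replicate block, a joint fit, each library left out, and, chosen after seeing the data, the mitochondrial share as a covariate.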

Additional observations from a re-analysis of the deposited data

Results flagged for a closer look

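Of 126 groups of 4 libraries examined for the 21 members printed by library, 15 held a library far from the rest by Dixon's criterion (its gap to the nearest over the whole range), where chance gives about 1 in 20. In BXPC3 vehicle libraries a single high value was found for EBNA1BP2 (147 CPM, next 86.7), NOP2 (127 CPM, next 90.6), NOP56 (198 CPM, next 143), NCL (860 CPM, next 743), NPM1 (1010 CPM, next 777) and PES1 (70.5 CPM, next 58.4). A single low value was found there for RRN3 (31.2 CPM, next 52.5) and POLR1E (15.1 CPM, next 18.3). All of these but POLR1E, which was replicate 3, were replicate 4.

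In MIAPACA2 the single libraries were low for LTV1 under AM-9747 (50.2 CPM, next 69.4) and for TAF1D under vehicle (39 CPM, next 42.2), and high under vehicle for EMG1 (47.9 CPM, next 38.4) and NIP7 (73.8 CPM, next 60.9). In PSN1 they were high for PES1 under AM-9747 (114 CPM, next 61.1), and under vehicle for NCL (974 CPM, next 353) and NIP7 (53.2 CPM, next 28.4), both in vehicle replicate 1.

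The response to AM-9747 differed between the 3 lines for UBTF (edgeR, adjusted p = 0.00564) and NIP7 (adjusted p = 0.0377). MIAPACA2 received 150 nM and the other lines 100 nM, and in these differences the dose cannot be told apart from the line.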

How the results depend on the processing

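Over 63 responses of the 21 members printed by library, none of 1134 alternative values turned a called direction, and 990 stayed on their side of the threshold, while 85 lost and 59 gained a call. Only 20 of the 63 responses were called, and all 85 losses fall on these. They kept their call in between 8 of 18 alternatives (WDR43 in PSN1) and all 18 (NOP2 in each line, among others). Counts of members called moved more. For BXPC3 (13) they were 35 with voom, 25 with the mitochondrial share as a covariate (chosen after seeing the data), 5 in the joint fit, and 3 to 25 with a library left out. For MIAPACA2 (7) they were 11 with DESeq2, 16 with voom, 25 with the covariate, 3 in the joint fit and 4 to 10 with a library left out. For PSN1 (5) they were 11 with DESeq2, 19 with voom, 20 in the joint fit and 1 to 20 with a library left out. The mean response (15) gave 25 with library totals and 11 to 24 with a library left out. The difference between lines (2) gave 8 with DESeq2, 5 with library totals, 1 with no filter, 5 at a mean of at least 5 CPM, 12 with voom and 1 to 22 with a library left out. MIAPACA2 vehicle against BXPC3 vehicle (30) gave 19 in the joint fit and 21 to 35 with a library left out. PSN1 vehicle against BXPC3 vehicle (23) gave 46 with voom, 5 with the covariate, 35 in the joint fit and 21 to 38, and PSN1 vehicle against MIAPACA2 vehicle (32) gave 15 with the covariate and 22 to 41. Whether replicate numbers pair the libraries is not settled: same-numbered ones correlated at -0.439 to 0.647, above 0.1 in 8 of 12 pairs and best with their own number in 4. With a replicate block, 22 members were called in BXPC3, 19 in PSN1 and 17 for the difference between lines, and the MIAPACA2 calls of POLR1E and TSR1 were lost (adjusted p = 0.0879 and 0.0623). Over all genes, BXPC3 (5158) gave 9598 with voom, 8025 with the covariate and 2414 in the joint fit. MIAPACA2 (2456) gave 3708 with DESeq2, 5192 with voom, 6382 with the covariate, 1151 in the joint fit and 1142 to 3243 with a library left out. PSN1 (1954) gave 3653 with DESeq2, 5485 with voom, 3355 with the block, 5762 in the joint fit and 530 to 4370. The difference (2764) gave 4871 with DESeq2, 4330 with the block and up to 6105 with a library left out. PSN1 vehicle gave 2785 against BXPC3 (10710) and 4481 against MIAPACA2 (8543) with the covariate. The cause of these shifts was not tested.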
